A study of Homo sapiens with 3 samples.

Results

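Cytosolic ribosomal protein genes were taken from the deposited gene lists by symbol: names of the form RPL or RPS followed by a number, with an optional A, X or L ending, together with the stalk genes RPLP0, RPLP1 and RPLP2 and the laminin receptor gene RPSA. The rule found 85 genes of 33538. They were 43 genes of the large subunit, 31 of the small subunit, 3 stalk genes and 8 paralogs, which are second copies of a ribosomal protein gene elsewhere in the genome (RPL3L, RPL7L1, RPL10L, RPL22L1, RPL26L1, RPL36AL, RPL39L and RPS27L).

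The cytosolic ribosome is built from ribosomal RNA and a single copy of most of these proteins, with the acidic stalk proteins present as dimers. The mRNAs of these genes are abundant in growing cells. Most begin with a C followed by an unbroken run of pyrimidines, the 5′ terminal oligopyrimidine (TOP) tract, through which their translation is controlled together downstream of the growth kinase mTORC1. In pancreatic endocrine cells the ribosome serves hormone and granule synthesis, and inherited defects of single ribosomal proteins such as RPS19 and RPS26 cause Diamond-Blackfan anaemia.

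The starting cells were H1, an established line of human embryonic stem cells, taken through differentiation toward pancreatic beta cells and profiled by droplet single-cell RNA sequencing (10x Genomics Chromium), in which each unique molecular identifier (UMI) stands for 1 captured mRNA. The series has 1 library of each of 3 PAX6 genotypes: WT (unedited), HET (PAX6+/-) and KO (PAX6-/-). PAX6 is a transcription factor of islet endocrine cells. How many clones or cultures stand behind a library is not given in the sources used here, so genotype, culture and library cannot be told apart, and no difference between libraries has a replicate check.

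Sequences at the transcription start are shown first, because the tract is the feature that most members share and most paralogs lack. The set of RefSeq start sites used here (GRCh38.p14) had an entry for 68 of the 85 members. A C at the first transcribed base followed by at least 4 pyrimidines was present in 47 of these 68 (69.1%). It was present in 5.14% of all 27305 genes in the same set. Among members other than paralogs it was present in 46 of 62 (74.2%), and among paralogs in 1 of 6 (16.7%), RPL22L1. Members without an entry in this set included RPL3L, RPL5, RPL7, RPL37 and RPL39L, which does not mean that RefSeq lacks them. Each line gives 15 bases before the start and 15 from the start onward, read 5′ to 3′ on the gene's strand, and capitals mark the tract. The genes are those that lead the results below, and for 4 paralogs the parent gene is printed beside them.
RPS19 (chr19:41860240-41860269, plus strand): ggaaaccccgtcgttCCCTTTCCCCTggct
RPLP1 (chr15:69452803-69452832, plus strand): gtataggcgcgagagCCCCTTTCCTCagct
RPL39 (chrX:119791616-119791645, minus strand): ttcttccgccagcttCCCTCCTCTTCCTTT
RPL41 (chr12:56116618-56116647, plus strand): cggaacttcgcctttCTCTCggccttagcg
RPL3 (chr22:39319609-39319638, minus strand): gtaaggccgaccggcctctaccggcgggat
RPS26 (chr12:56041903-56041932, plus strand): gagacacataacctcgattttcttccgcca
RPL22 (chr1:6199581-6199610, minus strand): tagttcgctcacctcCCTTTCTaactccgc
RPL22L1 (chr3:170870181-170870210, minus strand): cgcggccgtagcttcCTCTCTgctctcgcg
RPS27 (chr1:153990747-153990776, plus strand): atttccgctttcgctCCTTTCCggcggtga
RPS27L (chr15:63157463-63157492, minus strand): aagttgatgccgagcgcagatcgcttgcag
RPL26 (chr17:8383179-8383208, minus strand): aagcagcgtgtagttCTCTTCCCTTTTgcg
RPL26L1 (chr5:172958714-172958743, plus strand): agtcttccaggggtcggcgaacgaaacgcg
RPL36A (chrX:101390996-101391025, plus strand): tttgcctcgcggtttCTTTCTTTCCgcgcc
RPL36AL (chr14:49620612-49620641, minus strand): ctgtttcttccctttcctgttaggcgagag
RPL7L1 (chr6:42879601-42879630, plus strand): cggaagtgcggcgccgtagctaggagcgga
RPS19 and RPL26L1 have a further annotated start in RefSeq, not printed, without the tract. RPL3 starts with a C that is followed by only a short pyrimidine run, and RPS26 starts with a G. A missing match says only that these letters are not at the annotated start.

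Of the barcodes in the files, 8662 of 9667 in WT, 8468 of 9628 in HET and 8785 of 9726 in KO were kept, and the files held 136834433 to 145948590 UMIs per library. Cells were split by CHGA, the granule protein chromogranin A and a marker of endocrine cells: CHGA-high cells had 10 or more CHGA UMIs per 10000 (1649 in WT, 638 in HET and 1122 in KO) and CHGA-low cells had fewer. MKI67-positive cells had at least 1 UMI of this proliferation marker, and were 454, 1066 and 570, of which 138, 330 and 171 had exactly 1. The labels name beta cells, but CHGA-low cells were the majority in every library. All 15 endocrine markers were higher in CHGA-high cells and all 11 proliferation markers were higher in MKI67-positive cells (edgeR, adjusted p under the 0.05 threshold). PAX6 RNA in CHGA-high cells was at 294 counts per 1000000 UMIs (CPM) in WT, 226 in HET and 284 in KO; this level does not check the genotype labels. The libraries shared 26 to 43 barcodes pairwise. WT stood apart from both other libraries in the makeup of its ribosomal protein mRNA, as described further down. With 1 library per genotype, results across classes are given for each library.

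CHGA-high cells gave a smaller share of their UMIs to ribosomal protein genes than CHGA-low cells in all 3 libraries. Over the summed UMIs of CHGA-high cells the share was 14.8% in WT, 15.4% in HET and 14.4% in KO. In CHGA-low cells it was 20.3%, 19.9% and 20.2%. The 3 CHGA-high values lay below the 3 CHGA-low values without overlap. Exact binomial 95% intervals were narrow, for example 14.83% to 14.86% in CHGA-high WT cells, and cover counting error only. The difference was -5.43 points in WT, -4.49 in HET and -5.84 in KO (mean -5.25 ± 0.69, SD, n = 3 libraries of different genotype), and the exact sign-flip permutation test over libraries gave p = 0.25, the smallest it can give with 3.

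Single cells showed the same order. The median cell of the CHGA-high class had 13.8% in WT, 14.2% in HET and 13.7% in KO, and the median CHGA-low cell had 19.8%, 19.2% and 20.01%. The cell distributions overlapped: the upper quartile of CHGA-high cells was 16.9%, 17.1% and 16.4%, near the lower quartile of CHGA-low cells at 16.7%, 16.4% and 17.2%. In molecules, the median CHGA-high cell held 1756, 1873 and 1669 ribosomal protein UMIs in WT, HET and KO, and the median CHGA-low cell held 2928, 2735.5 and 3160. Their median totals lay closer together, at 13427, 13363 and 12709.5 UMIs against 14528, 14015 and 15593.

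**Figure D1:**
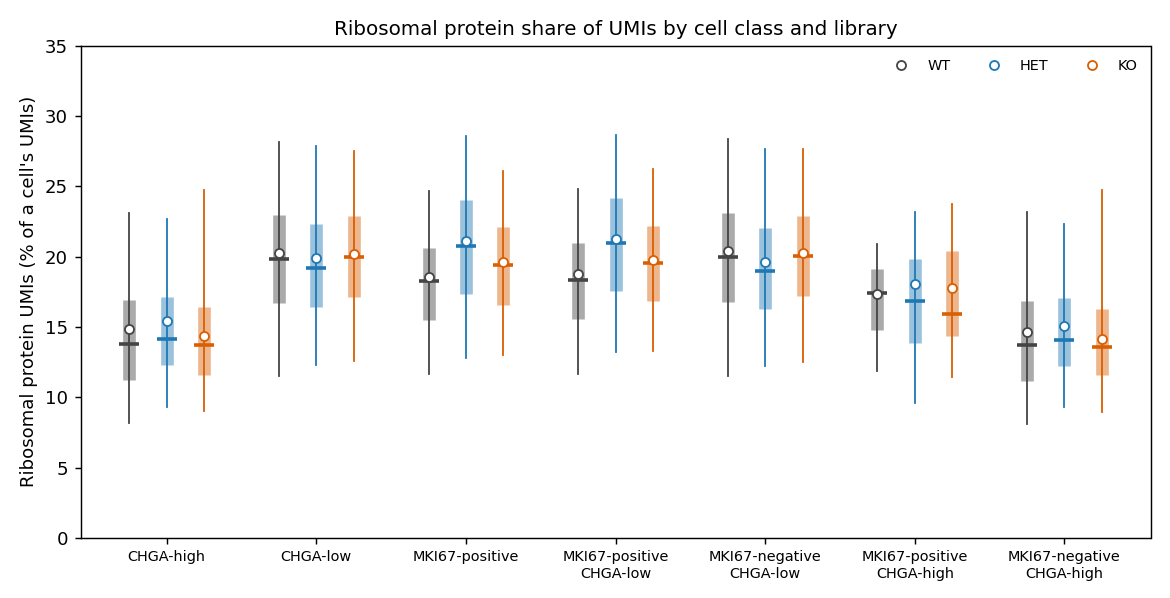
Ribosomal protein UMIs as a percentage of a cell's UMIs (y axis) in each cell class (x axis) of WT, HET and KO. Circles are the share over summed UMIs, dashes the median cell, thick bars the quartiles and thin lines the 5th to 95th percentiles over cells. CHGA-high cells lie below CHGA-low and MKI67-positive cells, at 14.4% to 15.4% over summed UMIs. The CHGA-high cells without MKI67 lie slightly lower still, at 14.1% to 15.04%. CHGA-high cells with MKI67 lie between the CHGA-high and the CHGA-low cells.

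The median share was lower at higher CHGA. Cells without a CHGA UMI had a median share of 20.1% in WT, 19.4% in HET and 20.4% in KO. At 3 to 10 CHGA UMIs per 10000 the medians were 17.1%, 16.5% and 18.1%, although these cells still counted as CHGA-low. At 10 to 30 they were 16.4%, 15.8% and 15.7%, at 30 to 100 they were 13.7%, 14.0% and 13.6%, and at 100 or more they were 12.0%, 13.3% and 12.6%. From 1 CHGA UMI per 10000 upward, each bin's median was below that of the bin before it in all 3 libraries. Just outside the threshold, at 8 to 10 CHGA UMIs per 10000, the median share was 16.3% (82 cells), 15.8% (48) and 15.9% (51). Just inside, at 10 to 12, it was 16.5% (71 cells), 16.8% (25) and 18.8% (31), so the medians just inside were not below those just outside.

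**Figure D2:**
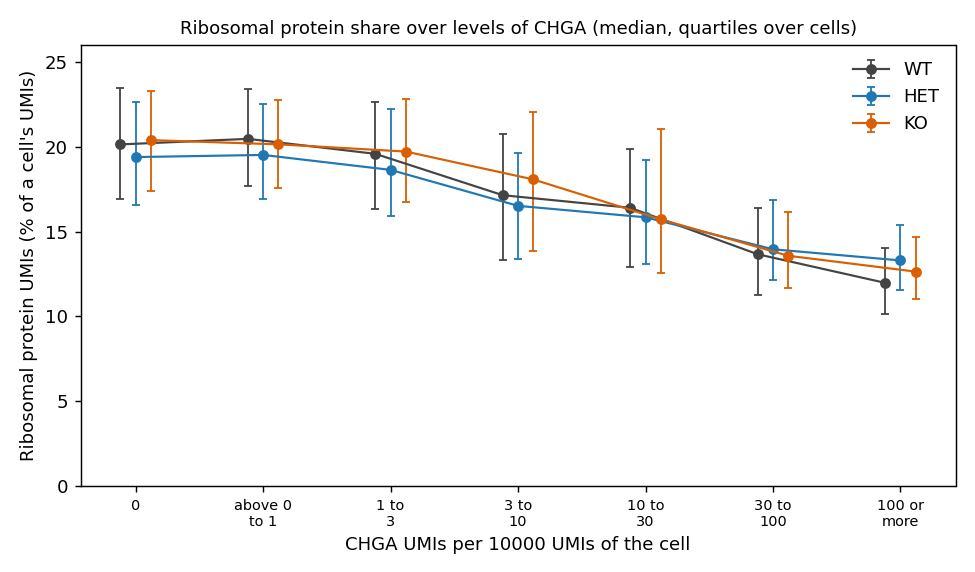
Median ribosomal protein share of UMIs with quartiles over cells (y axis) in bins of CHGA UMIs per 10000 (x axis) for the 3 libraries. The medians go from 19.4% to 20.4% in cells without CHGA down to 12.0% to 13.3% in cells with 100 or more CHGA UMIs per 10000.

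Other RNA that takes part of the total moved with the class. Mitochondrially encoded genes made up a median of 6.41%, 8.41% and 8.98% of UMIs in CHGA-high cells of WT, HET and KO, against 4.74%, 6.22% and 5.41% in CHGA-low cells. With mitochondrial and islet hormone UMIs taken out of the total, the difference between classes was -4.62, -3.80 and -5.49 points. Depth also moved with the share among CHGA-high cells, though not in a single direction. In WT and KO the CHGA-high cells with 1000 to 3000 UMIs had high medians, 19.98% (103 cells) and 23.5% (93 cells), while the 20 such HET cells had 14.2%. At this depth a few CHGA UMIs reach 10 per 10000, so the class of these cells is less certain. Within cells of 10000 to 20000 UMIs the difference between classes was -6.82, -5.42 and -7.04 points. Marker lists of other cell types moved with the class in both directions. The liver list (ALB, APOA1, AFP and TTR, the last also made by islet cells) summed to 9358, 7865 and 6213 CPM in CHGA-high cells against 3618, 1942 and 2369 in CHGA-low cells, and of its 4 genes TTR was called higher and AFP lower. Lower in all 3 libraries were the sums of the proliferation list (11 of 11 genes called lower), the duct and progenitor list (1553, 1962 and 1386 CPM against 2101, 3011 and 1682), the intestinal list (202, 190 and 182 against 341, 249 and 245), the mesenchymal list (16.5, 49.6 and 18.2 against 27.8, 82.9 and 25.4) and the pluripotent list (27.7, 44.2 and 26.2 against 89.6, 103 and 93.6). The 5 duct and progenitor genes were called higher in 2 cases and lower in 3. Of 4 intestinal genes 1 was called higher and 2 lower, and of 6 mesenchymal genes 1 higher and 3 lower. Of 3 pluripotent genes tested 1 was called lower and 0 higher, yet their median log2 ratio was 0.55. A lower sum therefore does not mean that each gene of a list was lower. The part of mitochondrial RNA, depth and these markers in the result was not tested beyond these values.

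Among CHGA-high cells the share also varied with the leading islet hormone, taken as the hormone gene with the most UMIs where it reached 100 per 10000. Cells led by insulin (INS) had 15.7% in WT (178 cells), 15.7% in HET (77) and 14.1% in KO (49). Those led by glucagon (GCG) had 13.6% (439), 13.9% (115) and 12.9% (23). Ghrelin-led (GHRL) cells had 13.9% in HET (36) and 11.8% in KO (111), the lowest value of the groups measured. In WT, cells led by PYY had 13.04% (34), by GAST 13.05% (41) and by SST 13.4% (51). Cells led by no hormone had 15.6% (875), 16.1% (380) and 14.7% (933). Hormone UMIs themselves were 12.5% of the total in the glucagon-led WT cells and 2.60% in the insulin-led ones. Without hormone and mitochondrial UMIs in the total these became 16.7% and 17.4%, and the PYY-led, GAST-led and SST-led WT cells came to 14.8%, 14.6% and 16.4%. In KO the ghrelin-led cells were still the lowest, at 13.5% against 14.7% to 16.2% in the other groups. These groups are single libraries and have no test.

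The lower share was spread over nearly the whole family. Of 83 members with enough counts to test, 76 were lower in CHGA-high than in CHGA-low cells and 1 was higher, in a fit on summed UMIs with the library as a block (edgeR quasi-likelihood, Benjamini-Hochberg over 19367 genes). Among all genes tested, 25.7% were lower and 26.9% higher. The members' median log2 ratio was -0.50 (quartiles -0.62 and -0.40), against -0.01 for all genes. By role, 41 of 43 large subunit genes, 30 of 31 small subunit genes, all 3 stalk genes and 2 of 6 tested paralogs were lower. The count depended on the scaling. With each sum scaled to its own ribosomal protein UMIs, 12 members were lower and 14 higher, with all genes shifted to a median of 0.52. Without the library block 48 were lower, and without the WT library 59.

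The lowest fitted ratio was that of RPS19, a protein of the small subunit head needed for 18S rRNA maturation. RPS19 was at 3588, 3877 and 3535 CPM in CHGA-high cells of WT, HET and KO and at 6255, 6302 and 6891 in CHGA-low cells. The groups did not overlap, and the fitted log2 ratio was -0.91 ± 0.09 (SE; edgeR adjusted p = 0.00063). RPS18, also of the head, fell by 0.81 ± 0.09 on the log2 scale, from 5008, 4712 and 4620 CPM in CHGA-low cells to 3098, 3120 and 2526 in CHGA-high cells.

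In the large subunit, RPL37 had a log2 ratio of -0.83 ± 0.09 and RPL39, a small protein that lines the exit tunnel, of -0.77 ± 0.09, both called by edgeR. RPL39 stood at 1714, 2564 and 2388 CPM in CHGA-high cells and 2813, 3750 and 4125 in CHGA-low cells. In the stalk, which recruits the elongation factors, RPLP1 fell by 0.76 ± 0.08, RPLP0 by 0.67 and RPLP2 by 0.54 on the log2 scale. RPLP1 was at 3284, 3896 and 3680 CPM against 5260, 5882 and 6209. HET gave the smallest fall of the 3 libraries for each of these genes, as it did for the summed share.

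A few members departed from the rest. A departure is a member's log2 ratio minus the median over members, and so does not move with the scaling of a library. Only RPL7L1 and RPS26 departed by 0.5 or more in the same direction in all 3 libraries. RPL7L1, the paralog of RPL7, was the single member called higher: 190, 194 and 204 CPM in CHGA-high cells against 147, 141 and 155 in CHGA-low cells, log2 ratio 0.32 ± 0.07 (edgeR adjusted p = 0.0082). Its departures were 0.78, 0.81 and 0.86. Without the HET library its log2 ratio of 0.27 was no longer called (edgeR adjusted p = 0.062).

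RPS26, which lies at the mRNA exit channel, was at 441, 786 and 864 CPM in CHGA-high cells and 373, 686 and 647 in CHGA-low cells. It was higher in the CHGA-high class in each library, yet its log2 ratio of 0.20 ± 0.07 missed the threshold (edgeR adjusted p = 0.055), and 5 of 15 alternatives called it higher. RPL3, which reaches toward the peptidyl transferase centre, had 3906, 2834 and 2504 CPM against 3759, 2627 and 2466, and RPL41, the smallest ribosomal protein, had 3257, 4609 and 4291 against 3157, 4349 and 4232. Their fitted log2 ratios were -0.03 ± 0.07 and -0.04 ± 0.07, with edgeR adjusted p of 0.80 and 0.69. CPM here is per total UMIs and the ratios are scaled by TMM, so CPM was higher in CHGA-high cells in each library while the ratios were slightly negative. Both ratios lay near 0, whereas the median over the 43 large subunit genes was -0.47.

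The remaining paralogs varied. RPS27L, a p53 target, had a log2 ratio of -0.40 ± 0.07 and its parent RPS27 of -0.50, both called by edgeR. RPL39L was called lower at -0.59 ± 0.17, with a log2 ratio of -1.10 in KO against -0.35 in WT and -0.36 in HET, and it was not called without the HET library (edgeR adjusted p = 0.058) or without the library block (0.18). RPL26L1 (0.12 ± 0.06) and RPL36AL (-0.05 ± 0.07) were not called, whereas their parents RPL26 (-0.74) and RPL36A (-0.63) were called lower. RPL22L1 went opposite ways: its log2 ratio was -0.41 in WT, 0.27 in HET and 0.41 in KO, while its parent RPL22 fell in all 3 (fitted -0.63). RPL3L and RPL10L, known from striated muscle and testis, were too rare to test, with at most 5 and 2 UMIs in any class of any library.

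The share of a paralog within the sum of paralog and parent compares the same classes free of library scaling. It is a different measure, since it also rises where only the parent falls. RPL7L1 made up 13.0%, 12.9% and 14.6% of the RPL7 pair in CHGA-high cells of WT, HET and KO, against 6.62%, 6.96% and 7.56% in CHGA-low cells. RPL26L1 made up 7.76%, 7.93% and 10.1% of its pair against 4.47%, 5.16% and 5.06%. RPL36AL, the larger partner of its pair, went from 77.0%, 66.5% and 66.1% in CHGA-low cells to 83.4%, 74.2% and 74.7% in CHGA-high cells. Exact binomial intervals of the classes did not overlap in any library for these 3 pairs. RPL22L1 was at 8.45%, 8.06% and 7.58% of its pair in CHGA-low cells and at 9.61%, 13.2% and 15.6% in CHGA-high cells. Its share was thus higher in CHGA-high cells of WT too, although its own log2 ratio was negative there. RPL22, RPL26 and RPL36A are overlapped on their own strand by other counted genes, so these shares are uncertain.

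**Figure D3:**
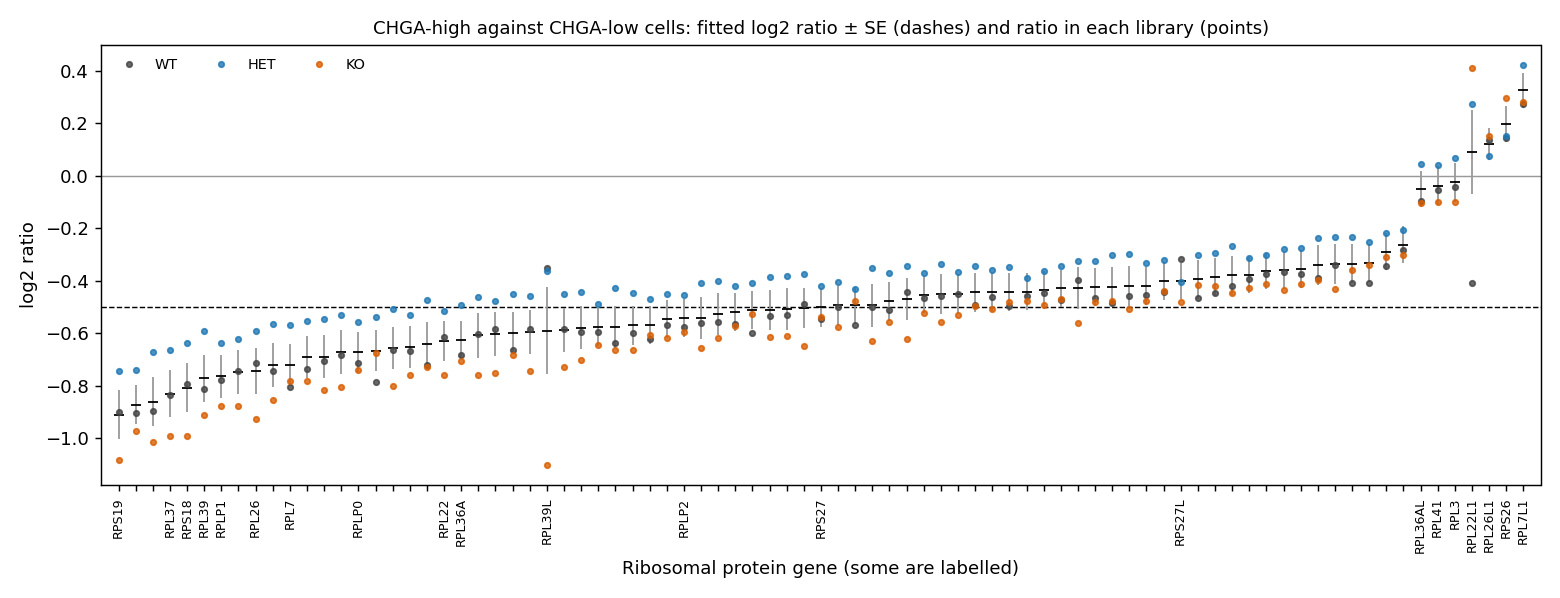
Log2 ratio of CHGA-high to CHGA-low cells (y axis) for each tested ribosomal protein gene (x axis, ordered by the fitted value, with some of the genes labelled). Dashes with bars are the edgeR estimate ± SE, points the ratio in each library and the dashed line the members' median of -0.50; RPL7L1, RPS26, RPL26L1, RPL22L1, RPL3, RPL41 and RPL36AL stand above the rest at the right end.

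Members with the pyrimidine tract and members without it were both mostly lower in CHGA-high cells. Leaving paralogs aside, the 46 with the tract had a median log2 ratio of -0.54 (quartiles -0.63 and -0.43), and 45 of them were called lower. The 16 without it had -0.44 (quartiles -0.51 and -0.37), and 14 were called lower, the 2 others being RPL3 and RPS26. The member with the tract that was not called was RPL41. Coding length had no clear relation to the class ratio over the 83 members, whose sums share the same libraries (Spearman's rho 0.04).

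Genes that work with the ribosome moved in both directions but mostly down. The background for the counts that follow is 25.7% of all genes tested lower and 26.9% higher. Of the subunit genes that the symbol rule does not catch, RACK1 (-0.49 ± 0.08) was called lower, and FAU (-0.19 ± 0.07) was not (edgeR adjusted p = 0.059). Elongation factors fell in 5 of 6 cases, led by EEF1D (-1.15 ± 0.09), and EEF1A2, the form known from neurons and muscle, rose by 1.13 ± 0.14 on the log2 scale. Initiation factors were lower in 20 of 30 and higher in 2, with EIF2S3 at -0.92 and EIF4A2 at 0.39. Of 11 other TOP mRNA genes measured, 9 were lower and 1 higher, led by the poly(A) binding protein gene PABPC1 (-1.46 ± 0.10), which was below the lowest member. Ribosome biogenesis genes were lower in 20 of 32 and higher in 1, led by the growth regulator MYC (-1.51 ± 0.09), and p53 targets were lower in 16 of 20 and higher in 1, led by GDF15 (-1.58 ± 0.16).

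Of 79 mitochondrial ribosomal protein genes tested, 23 were higher and 19 lower, beside 26.9% higher and 25.7% lower among all genes tested, with a median log2 ratio of 0.03 against -0.50 for the cytosolic members. The range ran from MRPL16 at -0.91 ± 0.10 to MRPL53 at 0.81 ± 0.15 among protein genes. The 23 include MRPS30-DT, a transcript divergent from MRPS30 that the symbol list also holds.

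MKI67-positive cells showed no common direction of the ribosomal protein share. Over all MKI67-positive cells the share was 18.6% in WT, 21.1% in HET and 19.6% in KO. Within CHGA-low cells, those with MKI67 had a share of 18.8% in WT, 21.3% in HET and 19.8% in KO, and those without it had 20.4%, 19.6% and 20.2%. The difference was -1.60 points in WT, 1.66 in HET and -0.47 in KO, so HET went the other way. The mean over libraries was -0.14 ± 1.65 points (SD, n = 3; exact sign-flip permutation p = 1). Median cells gave -1.61, 2.005 and -0.49 points.

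Depth differed between these classes. The median MKI67-positive CHGA-low cell had 19199, 20066.5 and 21164 UMIs, against 14344.5, 13460 and 15253 in MKI67-negative ones. Within 10000 to 20000 UMIs the differences were -2.60, 1.1996 and -1.14 points, with the same signs. Mesenchymal markers also differed: the 6 genes summed to 217 CPM in MKI67-positive CHGA-low cells of HET against 52.0 in MKI67-negative ones. WT had 27.9 against 27.8 and KO 62.9 against 21.5, with none of the 6 at 0. They were thus higher with MKI67 in KO too, where the ribosomal protein share was lower. Their part in the HET result was not tested.

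In CHGA-high cells the direction was common. The 55, 42 and 32 MKI67-positive CHGA-high cells of WT, HET and KO had shares of 17.3%, 18.1% and 17.8%, against 14.7%, 15.04% and 14.1% in the MKI67-negative ones. The differences were 2.67, 3.04 and 3.63 points (exact sign-flip permutation p = 0.25, the smallest possible). These cells were deep, with medians of 29314, 30022 and 28075.5 UMIs against 13177.5, 13077.5 and 12603.5. With every cell thinned to 5000 UMIs, which left 21, 17 and 15 MKI67-positive CHGA-high cells, the differences were 1.28, 1.42 and 2.36 points. At 10000 to 20000 UMIs they were 2.63, -2.77 and 3.75 points, so HET reversed there, on 7 MKI67-positive cells. Without the top 8% of doublet scores 28, 21 and 15 MKI67-positive CHGA-high cells remained, and the differences were 3.60, 3.23 and 4.24 points. The part of doublets was not tested beyond these values.

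Almost no single member was called with MKI67. Between MKI67-positive and MKI67-negative CHGA-low cells, 2 of 83 members were called, both higher and both paralogs, against 11.8% of all 18671 genes higher and 8.36% lower (edgeR quasi-likelihood, library as a block). The members' median log2 ratio was -0.00 (quartiles -0.04 and 0.06). This median covers libraries that moved opposite ways. Without HET 66 members were below 0 (median -0.07), and without WT 11 were (median 0.07). Few calls therefore do not show that members were unchanged within a library. None of the 43 large subunit, 31 small subunit or 3 stalk genes was called, and 5 members had an unadjusted p under 0.05.

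RPL39L, the paralog of RPL39 with a coding region of equal length (153 bases each), was the clear exception. The gene lies on chromosome 3 (chr3:187120948-187180908, minus strand, GENCODE 29 on GRCh38) and is known from male germ cells and stem cells. It was at 47.7, 33.8 and 37.5 CPM in MKI67-positive CHGA-low cells of WT, HET and KO, and at 16.6, 12.6 and 12.8 CPM in MKI67-negative ones, with no overlap. The ratio was 2.91 in WT (exact 95% interval 2.61 to 3.24), 2.73 in HET (2.50 to 2.99) and 2.96 in KO (2.66 to 3.29). The fitted log2 ratio was 1.52 ± 0.07 (edgeR adjusted p = 2.9e-06), and it departed from the members' median by 1.65, 1.33 and 1.59 in the single libraries. Its parent RPL39 had -0.04 ± 0.06 and was not called.

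The counts behind RPL39L were small, 427, 786 and 458 UMIs in the MKI67-positive CHGA-low cells. With every cell thinned to 5000 UMIs, shallower cells left out and the classes set again, 247, 617 and 317 MKI67-positive CHGA-low cells remained in WT, HET and KO. RPL39L was then detected in 21.9% of MKI67-positive CHGA-low cells of WT against 7.92% of MKI67-negative ones, in 19.4% against 5.82% in HET, and in 16.1% against 6.24% in KO. In thinned CHGA-high cells it was detected in 6.62%, 4.405% and 3.35%. No class here is known to lack the gene, so the level that free RNA gives was not measured. It took 1.84%, 0.869% and 0.939% of the RPL39 and RPL39L sum in MKI67-positive CHGA-low cells, against 0.581%, 0.336% and 0.307%. CHGA-high cells showed the same order, at 36.4, 28.6 and 23.2 CPM with MKI67 (65, 38 and 21 UMIs) against 14.5, 10.97 and 6.72 without. RPL39L was a minor part of the pair in every class, and the WT share was above the HET and KO shares in each.

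RPL22L1, the paralog whose level RPL22 is known to hold down, was the other member called. It was at 133, 204 and 176 CPM in MKI67-positive CHGA-low cells and 113, 102 and 106 in MKI67-negative ones, with no overlap. The log2 ratio was 0.68 ± 0.13 (edgeR adjusted p = 0.0094), at 0.26 in WT, 1.01 in HET and 0.75 in KO. Without the KO library, or without the library block, it was not called (edgeR adjusted p = 0.095 and 0.058). RPL22 itself had log2 ratios of -0.08, 0.12 and -0.05. RPL22L1 made up 10.3%, 12.3% and 11.8% of the pair with MKI67, against 8.30%, 6.97% and 7.14% without.

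RPS27L, which p53 induces, had the lowest log2 ratio of any member, -0.21 ± 0.07, with -0.09, -0.35 and -0.20 in WT, HET and KO (edgeR adjusted p = 0.057). It was called lower by DESeq2 (adjusted p = 0.038) and in 4 other of the 15 alternatives. The other tested paralogs RPL7L1, RPL26L1 and RPL36AL had log2 ratios of -0.04, -0.01 and 0.02 and were not called.

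**Figure D4:**
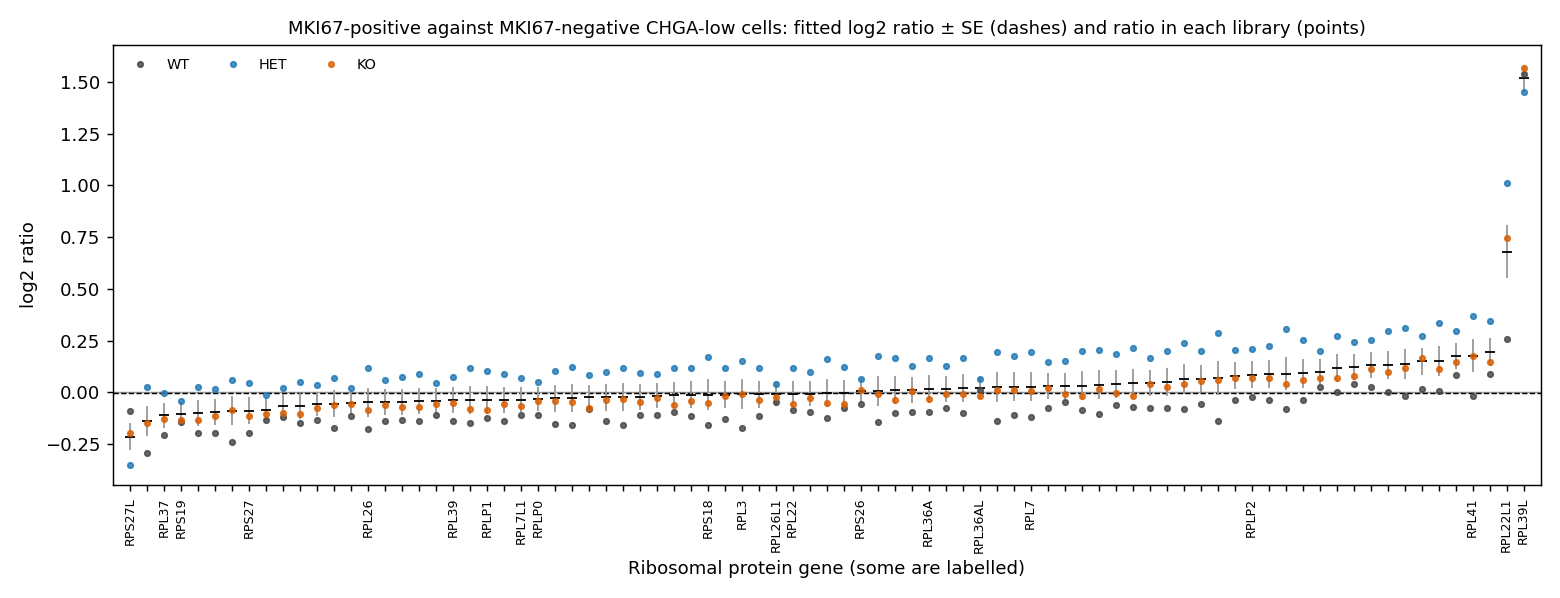
Log2 ratio of MKI67-positive to MKI67-negative CHGA-low cells (y axis) for each tested ribosomal protein gene (x axis, ordered by the fitted value, with some of the genes labelled), with the edgeR estimate ± SE as dashes and the 3 libraries as points. RPL39L at 1.52 and RPL22L1 at 0.68 stand apart on the right, and the HET points lie above the WT points for all other members but RPS27L.

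Some genes of ribosome assembly changed in these cells. Among all genes tested 11.8% were higher and 8.36% lower, the background for the counts that follow. Of 32 ribosome biogenesis genes 12 were higher and 0 lower, led by TCOF1 (log2 ratio 0.93 ± 0.06), which supports ribosomal DNA transcription, the methyltransferase gene FBL (0.73 ± 0.07) and NOP58 (0.51 ± 0.06), all called by edgeR. Mitochondrial ribosomal protein genes were higher in 11 of 79 and lower in 0, led by MRPL11 (0.62 ± 0.07). Initiation factors were higher in 6 of 30 and lower in 2. Of 6 elongation factors only EEF1D rose (0.23 ± 0.05). Other TOP mRNA genes were higher in 3 of 11 and lower in 1, with HNRNPA1 at 0.55 ± 0.06 and the noncoding ZFAS1 at -0.29 ± 0.06. Of 20 p53 targets 5 were lower and 1 higher, with ZMAT3 at -0.43 ± 0.07. FAU and RACK1 were not called.

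Between libraries the summed share of CHGA-low cells lay within 19.9% to 20.3%, but single members differed more, with WT apart from HET and KO. Values here are TMM-scaled CPM, and past the fold means at least 1.5-fold apart with 50 CPM or more in either library, a level that 82 members reached. No test was possible with 1 library per genotype, and the comparisons with WT share that library. In CHGA-high cells 4 members were higher and 4 lower in KO than in WT (background 5.33% and 9.84% of genes), and 4 higher and 0 lower in HET than in WT (2.34% and 5.30%). In CHGA-low cells 3 were higher and 2 lower in both KO and HET (background 2.33% and 7.43% in KO, 2.51% and 7.13% in HET). In MKI67-positive cells 9 were higher in KO and 13 in HET, with 0 lower (3.30% and 6.84% in KO, 4.67% and 8.67% in HET). Between KO and HET 0 members were past the fold in any of the 3 classes, against 5.05%, 3.78% and 3.73% of genes in either direction. For the same classes, 15.2%, 9.76% and 10.1% of all genes were past the fold in KO against WT. In HET against WT 7.64%, 9.64% and 13.3% were. WT thus stood apart for genes in general, and these counts alone do not show a trait of ribosomal protein genes.

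RPS26 was lower in WT, at 392, 667 and 633 CPM in CHGA-low cells of WT, HET and KO, a ratio to WT of 1.61 for KO (exact 95% interval 1.60 to 1.63) and 1.70 for HET (1.68 to 1.72). In CHGA-high cells RPS26 was at 461, 787 and 825 CPM, and in MKI67-positive cells at 363, 702 and 639. WT was below both others in each class. RPL36A was at 138, 214 and 221 CPM in CHGA-low cells and 91.9, 162 and 144 in CHGA-high cells. RPL36A is 1 of 12 members that another counted gene overlaps on the same strand, so its counts are uncertain.

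RPL3 led the genes that were higher in WT. It stood at 3952 CPM in WT, 2553 in HET and 2413 in KO in CHGA-low cells, and at 4080, 2838 and 2393 in CHGA-high cells. In CHGA-low cells KO was below WT by a log2 ratio of -0.71 and HET by -0.63, and in CHGA-high cells the ratios were -0.77 and -0.52. RPL7A had -0.59 and -0.56 in CHGA-low cells, and RPL15 had -0.56 and -0.60. RPL29 completed the HET list in CHGA-low cells at -0.57. RPL22L1 was among the 3 members furthest above the rest in KO CHGA-high cells, with 156 CPM against 96.5 in WT, but in CHGA-low cells its log2 ratio to WT was -0.13. The stalk genes split: in CHGA-low cells RPLP2 was at 0.36 in KO and 0.31 in HET against WT, RPLP1 at 0.14 and 0.05, and RPLP0 at -0.34 and -0.33.

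These differences followed the length of the coding region, a pattern looked for after the values had been seen. In CHGA-low cells, over 82 members, coding length had a Spearman's rho of -0.81 with the KO-to-WT log2 ratio and also of -0.81 with the HET-to-WT one, and Pearson's r was -0.66 for both. The points share their 2 libraries and the WT values. The 10 members with under 300 coding bases, among them RPL41, RPS28 and RPL38, had median log2 ratios of 0.38 in KO and 0.31 in HET. The 18 members with 300 to 400 bases had 0.17 and 0.10, the 31 with 400 to 600 had -0.16 and -0.13, and the 23 with 600 or more had -0.39 and -0.36. The pattern held in CHGA-high cells, with rho -0.79 and -0.78, and in MKI67-positive cells, with -0.79 and -0.74.

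Between KO and HET, where no member was past the fold, rho in CHGA-low cells was -0.41 and the medians of the 4 length groups ran only from 0.10 to 0.00. Genes other than members did not share the direction. Their rho with coding length in CHGA-low cells was 0.33 for KO against WT (3403 genes) and 0.26 for HET against WT (3396 genes). Other genes with under 300 coding bases had medians of -0.15 and -0.07, against 0.38 and 0.31 for the members of that length. Whether genotype, culture or library preparation set the WT library apart cannot be told apart here.

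**Figure D5:**
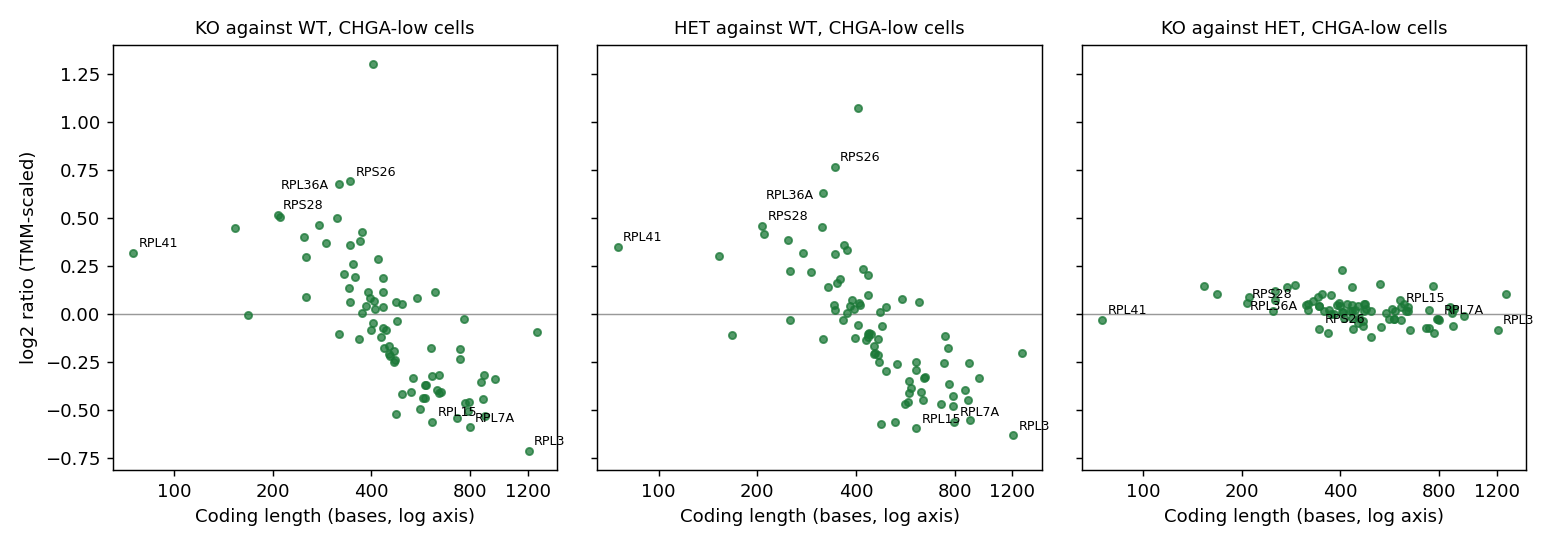
Log2 ratio between libraries in CHGA-low cells (y axis) against coding length on a log axis (x axis), 1 point for each of 82 ribosomal protein genes. In KO against WT and HET against WT the median of members under 300 bases lies above 0 and that of members of 600 bases or more below it (Spearman's rho -0.81 in both), while in KO against HET all members lie within 1.5-fold.

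Named pseudogenes exist for 77 of the 85 members in GENCODE 29, 1144 in all, and 0 of these were among the counted genes. How reads that fit both a member and a pseudogene were treated is not given in the sources used here, so the members' counts carry that uncertainty.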

How the data were processed

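The authors deposited raw UMI counts per gene and barcode. The file headers name Cell Ranger 6.1.2 as their source. GRCh38 and Seurat are listed in the submitters' processing notes. Barcodes with at least 1000 UMIs, 500 genes and at most 20% mitochondrial UMIs were kept. The Scrublet threshold (scanpy 1.11.5) called 0 doublets in each library, so the caller did not work and doublets were kept; an alternative removed the top 8% of scores. Counts were summed per library and class and tested with edgeR 4.0.16 (filterByExpr, TMM, quasi-likelihood, library as a block; R 4.3.3), Benjamini-Hochberg threshold 0.05, with DESeq2 1.42.0 as an alternative. Self-tests on simulated counts recovered 100 of 100 genes changed 2-fold, and 85% (CHGA, 19111 genes) and 100% (MKI67, 18380 genes) of those changed 1.5-fold. False calls numbered 36 (CHGA) and 26 (MKI67). The simulated counts held no library effect and far fewer changed genes than were called here, so these rates are for an easier setting. Library ratios have exact conditional Poisson intervals and shares have Clopper-Pearson intervals (95%), covering counting error only.

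Named were members departing by 0.5 (log2) in all 3 libraries with at least 5 CPM, the 3 departing most each way from WT, paralog pairs, stalk genes, FAU, RACK1 and up to 3 called genes of each list each way. RPL41, RPS28 and RPL38 fall outside this rule and were chosen after their values were seen, as was the comparison with coding length. Some members and other genes that this rule names are not reported here. Members and lists were chosen with earlier results of these data known. Coordinates are from GENCODE 29 and RefSeq (GRCh38.p14). P-values measure the spread between these libraries, which are of different genotype.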

Additional observations from a re-analysis of the deposited data

Results flagged for a closer look

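The ribosomal protein share moved opposite ways with MKI67 in different libraries: among CHGA-low cells, MKI67-positive minus MKI67-negative cells gave -1.60 points in WT, 1.66 in HET and -0.47 in KO. RPL22L1 moved opposite ways between CHGA-high and CHGA-low cells, with log2 ratios of -0.41 in WT, 0.27 in HET and 0.41 in KO. A member was listed here where libraries differed in sign with a log2 ratio of at least 0.2 each way. With 1 library per genotype neither difference was tested.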

How the results depend on the processing

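Of the alternatives for shares and for counts over both directions, 163 left the value within its spread or threshold. The others moved it in 18, raised it in 15 and lowered it in 12. Single members and the separate counts of members called lower or higher were tallied together. There, 503 alternatives left the call as it was or the count within its threshold. A call was added or a count raised in 26, and a call lost or a count lowered in 18. The sign changed in 6. The mean CHGA-high share became 16.7% without mitochondrial and hormone UMIs in the total, 13.9% as a median over cells, 14.1% without the top 8% of doublet scores, 13.7% in cells of 10000 to 20000 UMIs and 14.3% in thinned cells. The CHGA-low share became 21.3% without mitochondrial and hormone UMIs, 20.6% with subunit genes outside the symbol rule added and 19.7% as a median over cells. The class difference became -6.10 points without the top 8% of doublet scores and -6.43 in cells of 10000 to 20000 UMIs.

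Members called between CHGA classes numbered 26 when scaled to ribosomal protein UMIs, 49 without the library block and 61 to 76 with a library left out. For MKI67 they were 1 without the block and 1 to 4 with a library left out, with 4 without WT and 1 without KO. Scaled to ribosomal protein UMIs, where falling members are set near 0 by construction, the log2 ratios of RPL3 (0.50), RPL41 (0.49), RPL36AL (0.47), RPS27L (0.12), RPL10 (0.075) and RPS27 (0.023) turned positive. By edgeR, RPS26 was called higher between CHGA classes with totals only (log2 ratio 0.28, adjusted p = 0.016), scaled to ribosomal protein UMIs (0.72, adjusted p = 0.00022), without the top 8% of doublet scores (0.27, adjusted p = 0.038), from 20 CHGA UMIs per 10000 (0.20, adjusted p = 0.0495) and in cells of 10000 to 20000 UMIs (0.26, adjusted p = 0.034). In the other alternatives its adjusted p was 0.053 to 0.61 by edgeR or DESeq2.

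Members past the fold at 2-fold numbered 1 for KO and 1 for HET against WT in CHGA-high, CHGA-low and MKI67-positive cells. At 1.2-fold they numbered 49, 42 and 35 for KO and 37, 37 and 39 for HET, and 9 in CHGA-high and 1 in MKI67-positive cells for KO against HET. HET against WT in CHGA-high cells gave 7 with totals only, without the top 8% of doublet scores and at 10000 to 20000 UMIs, and 8 when thinned. In CHGA-low cells it gave 3 with totals only and 8 at 10000 to 20000 UMIs, and in MKI67-positive cells 4 when scaled to ribosomal protein UMIs. KO against HET in CHGA-high cells gave 1 with a minimum of 5 CPM.

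The CHGA difference in the RPL7L1 share became 7.95 points without the top 8% of doublet scores, 5.80 from 5 and 7.02 from 20 CHGA UMIs, 8.56 at 10000 to 20000 UMIs and 7.38 when thinned. That of RPL26L1 became 5.48 at 10000 to 20000 UMIs, and that of RPL36AL 8.81 without the top 8% of doublet scores and 9.12 at 10000 to 20000 UMIs. Apart from the scaling, the cause was not tested. No paired analysis was possible because each genotype has 1 library; the library block pairs cell classes of the same library. At this depth RPL3L and RPL10L could not be tested.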

Other observations

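Barcodes left out of the comparisons for more than 20% mitochondrial UMIs had low ribosomal protein shares. The 693 such barcodes of WT had 5.91%, the 783 of HET had 6.12% and the 712 of KO had 6.20%, with median mitochondrial shares of 41.1%, 42.1% and 49.8%. The 308, 376 and 229 barcodes with under 1000 UMIs had 12.0%, 14.0% and 12.7%.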
